A study of Homo sapiens with 8 samples.

Results

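A population of KCL-22 cells that had grown out under the inhibitor GNF-2 was compared, gene by gene, with the vehicle population of the same barcoded pool. KCL-22 is an established human line from chronic myeloid leukemia in blast crisis. Both populations came from a polyclonal pool carrying ClonTracer barcodes, short heritable DNA tags delivered by lentivirus so that the progeny of 1 cell can be followed. Cells of the GNF-2-resistant population had grown with the inhibitor at 2.5 µM over 21 days, and cells of the vehicle population with DMSO at 0.1% over 7 days. Drug exposure and days in culture differ together, so their shares in any difference cannot be told apart. The other 6 libraries of the series are cited for their levels only. Resistant populations had been kept in 2.5 µM imatinib or 0.3 µM nilotinib for 27 days each, and 4 clones were expanded from sorted single cells. Clones 1, 2 and 4 came from the GNF-2-resistant population and had met no catalytic inhibitor, and Clone 3 came from the imatinib-resistant population and had met no allosteric one. Each condition is 1 library of total RNA, so differences below have no replicate check and are given as values, without a standard error or a p-value.

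Values are FPKM, fragments per kilobase of transcript scaled to the mapped fragments of the library. Genes entered the comparison if they had a value in all 8 libraries and their FPKM reached 5 in the higher of the 2 compared. Both held for 9661 of the 31402 deposited entries. At that threshold ITGA9 (FPKM 5.0006 in the GNF-2 population) was the lowest protein-coding gene inside and FNIP2 (4.99671 in vehicle) the highest outside. Differences are of log2(FPKM + 1), GNF-2 population minus vehicle, and a gene was called higher or lower where that difference reached 1, a 2-fold change on this scale, which understates the change of low genes. By estimate the vehicle library holds about 27500000 fragments and the GNF-2 library about 20100000. For a 2-kilobase transcript an FPKM of 5 then rests on about 275 and 201 fragments, a counting error (SD) of 6.03% and 7.05%. In bulk RNA, fewer cells of a type and less RNA per cell cannot be told apart.

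BCR-ABL, the fusion kinase of this leukemia, signals through STAT5, the RAS and MAP kinase cascade and PI3 kinase, which together drive proliferation, survival and glucose use in myeloid blasts. GNF-2 holds the kinase inactive from outside the catalytic site by binding the myristate pocket of ABL. Feedback genes such as CISH, the SOCS family and the DUSP phosphatases are transcribed when STAT5 and ERK are active, and are commonly read as the output of those pathways.

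The labelled cell type was checked against its defining genes. Of 7 myeloid blast markers, 4 had an FPKM of at least 1 in vehicle and 5 in the GNF-2 population, with summed levels of 97 and 70.1. ANPEP (CD13) had 59.2 and 32.0 and CD33 2.57 and 3.07, whereas KIT was listed at 0 in both libraries and MPO was below 1 in both. Erythroid and fibroblast markers summed to less than 1 in both libraries, with the globin gene HBB and the collagen-binding gene DCN listed at 0. One marker of each lymphoid list was present, CD79A (28.6 in vehicle, 30.8 in the GNF-2 population) and CD3D (32.0 and 10.6), while MS4A1, PAX5, CD2, CD3E and LCK were all below 1. The megakaryocyte list was carried by GP9 (32.9 and 33.6) with PPBP listed at 0 and ITGA2B at 0.345 and 1.94. KRT8 and KRT18 carried nearly the whole epithelial sum (43.3 and 43.8), and EPCAM was at 0.0593 and 0.0873. The part of these markers in the differences below was not tested.

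Most genes lay close to the diagonal. The median difference was 0.09 and the quartiles were -0.20 and 0.39. By any amount 58.2% of genes were higher in the GNF-2 population and 41.8% lower. The threshold was reached by 370 genes on the higher side (3.83%) and 321 on the lower side (3.32%), 7.15% in all. Of these 691, 88 were listed at 0 in one of the libraries, 44 on each side, and without them 603 genes were called (6.3%), 326 higher (3.41%) and 277 lower (2.89%). The split between the sides depended on the scaling, and also on the pseudocount, FPKM threshold and fold, as given in the last section. Rescaling by median ratios takes about 0.10 from every difference and puts the median of all genes at -0.01. Genes called higher made up 53.5% of the calls in the deposited FPKM, 41.8% after rescaling by median ratios (267 higher, 371 lower) and 38.1% after quantile normalization (251 higher, 408 lower). OAS1 (0.999297) stood just short of the threshold and SLC25A20 (1.00045) just past it. Counts in the gene lists below stand beside 3.83% of all genes called higher and 3.32% called lower.

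Both sides differed in level and in size. Genes called higher had a median FPKM of 4.13 in vehicle and 12.7 in the GNF-2 population, and genes called lower 24.0 and 7.12. Of the 850 genes that reached an FPKM of 100 in either library, 17 were called higher (2%) and 45 lower (5.29%). With genes listed at 0 set aside, a difference of 4-fold or more was found for 11 genes on the higher side and 48 on the lower side. The scatter plot of both libraries shows the lower genes reaching further from the diagonal, led by ADM, CXCR4 and CYTIP.

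**Figure D1:**
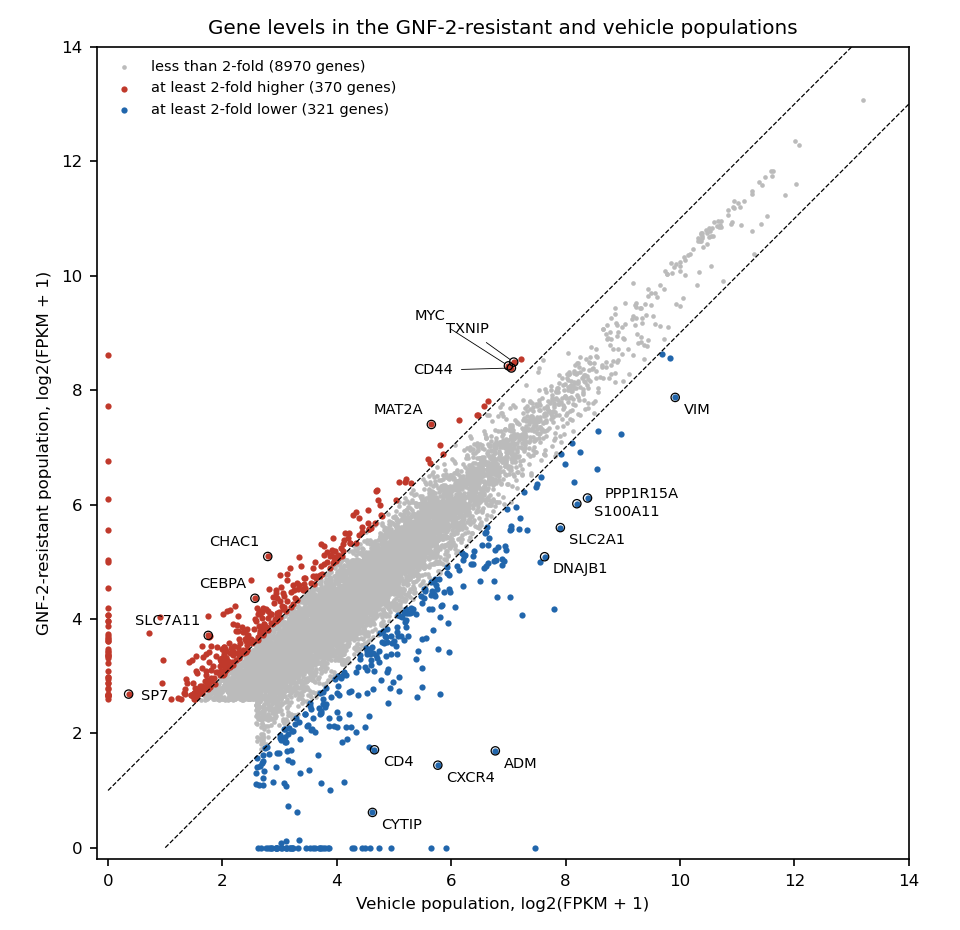
Each point is 1 of the 9661 genes, with its log2(FPKM + 1) in the vehicle population on the x axis and in the GNF-2-resistant population on the y axis, and dashed lines mark a difference of 2-fold. Red points (370 genes) were called higher and blue points (321 genes) lower, and the named genes are circled. Points with an x value of 0 are listed at 0 in vehicle, and points with a y value of 0 in the GNF-2 population.

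A list of genes used as a readout of BCR-ABL and STAT5 had lower RNA levels for part of its members. Activity of the kinase and of STAT5 was not tested. Of 16 members in the comparison 7 were called lower and none higher, with a median of -0.65 beside 0.09 for all genes. OSM, a cytokine gene induced by STAT5 and located on chromosome 22 (30658818 to 30662829, GRCh37), stood at 40.6 in vehicle and 8.79 in the GNF-2 population (-2.09). Feedback inhibitors of JAK and STAT signalling were lower too. SOCS3 had 28.4 and 7.38, SOCS1 124 and 35.8, and SOCS2 178.5 and 78.4. CISH, another feedback inhibitor, had 147 in vehicle, 83.0 in the imatinib, 119.9 in the nilotinib and 53.7 in the GNF-2 population. Among the 4 populations GNF-2 therefore had the lowest CISH level, while Clone 2 (40.6) was lower still and Clone 3 (100.4) stood between the populations. PIM1, a serine/threonine kinase that prolongs survival, had 132 and 46.4. CDKN1A, counted here and named again below among the cell cycle inhibitors, had 55.6 and 17.7. The STAT5 genes themselves were close to their vehicle levels, STAT5A at 17.1 and 21.9 and STAT5B at 44.3 and 43.9, as was the survival gene BCL2L1 at 26.6 and 31.7.

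Genes that encode the kinase and its adaptors formed a separate list. Of 20 members 2 were called lower and none higher, beside 3.32% of all genes called lower, and the median was 0.01 (-0.08 after rescaling by median ratios and -0.05 after quantile normalization). ABL1 (chromosome 9, 133589267 to 133763062) had 105 in vehicle and 81.7 in the GNF-2 population (-0.36), and BCR 87.5 and 85.1 (-0.04). One value per gene holds the BCR-ABL1 fusion and the unrearranged copies together. CRKL, an adaptor and a direct substrate of BCR-ABL, had 153 in vehicle, 122 in the imatinib, 89.5 in the nilotinib and 73.2 in the GNF-2 population, and 54.1 to 75.7 in the clones. Vehicle thus had the highest CRKL level of the 8 libraries. The scaffold GAB2 had 49.9 and 21.3 (-1.19), whereas GRB2 (84.5 and 87.5), SOS1 (9.90 and 10.8) and PTPN11 (45.7 and 60.1), which link the receptor complex to RAS, were not called. SHC1, an adaptor of the same complex, had the largest positive value of the list at 43.8 and 67.1 (0.61). None of the 6 SRC family and SYK kinase genes in the comparison was called, with FYN at 22.6 and 29.7 and YES1 at 25 and 27.8. Of 12 receptor tyrosine kinase and ligand genes FGFR4 alone was called, at 1.73 in vehicle and 5.37 in the GNF-2 population.

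**Figure D2:**
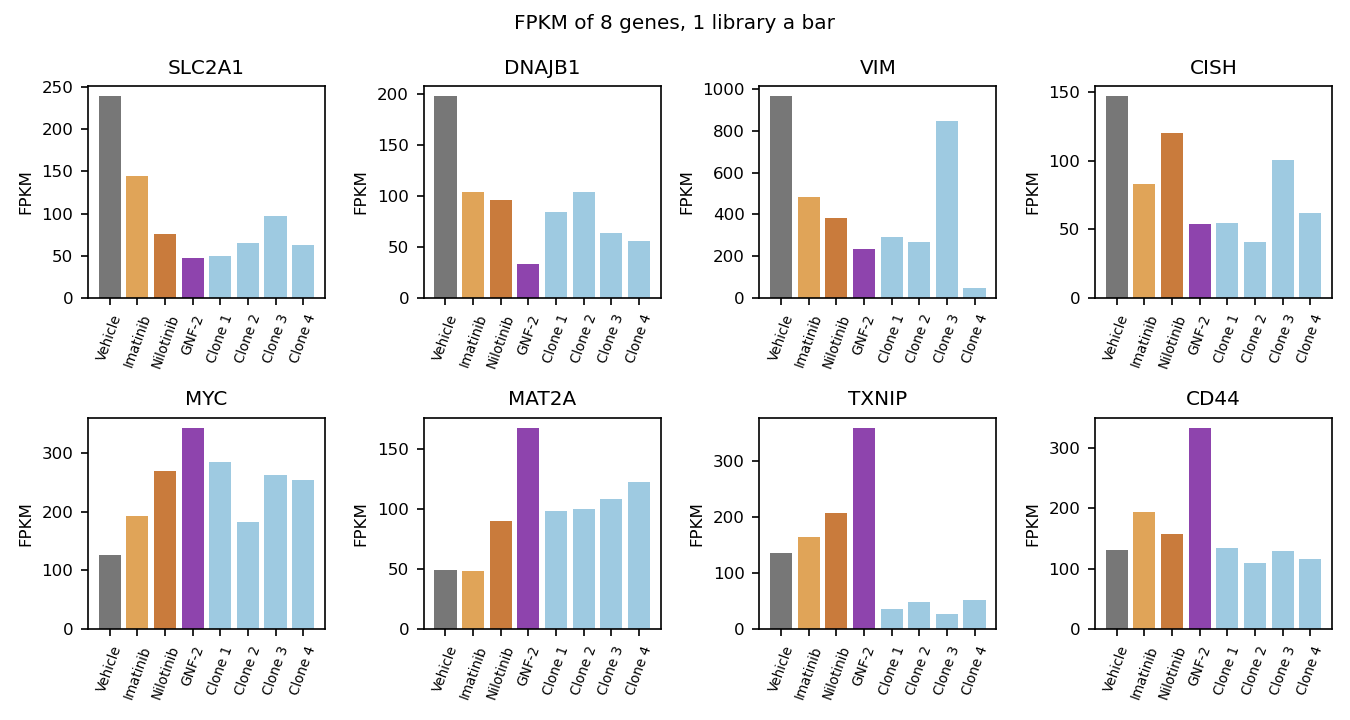
Bars give the FPKM of 8 genes in each of the 8 libraries (vehicle, the imatinib, nilotinib and GNF-2 populations, and Clones 1 to 4), 1 library a bar, so there is no error bar. SLC2A1, DNAJB1, VIM and CISH were lower in the GNF-2 population than in vehicle (47.4 against 239 for SLC2A1), and MYC, MAT2A, TXNIP and CD44 higher (168 against 49.3 for MAT2A).

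Immediate early and MAP kinase feedback genes were mostly lower. Of 30 members 12 were called lower and 2 higher, with a median of -0.85. PPP1R15A, which directs the dephosphorylation of the translation factor eIF2 alpha, had 333 in vehicle and 68.2 in the GNF-2 population. DUSP1, a phosphatase of MAP kinases, had 23.9 and 5.81, and PHLDA1 16.9 and 3.29. The AP-1 genes FOS (7.46 and 1.18), JUN (12.3 and 4.22), FOSL2 (40.8 and 15.9) and FOSB (6.04 and 2.10) were all called lower. EGR1, a zinc finger transcription factor, had 44.1 in vehicle, 7.33 in the imatinib, 10.1 in the nilotinib and 18.4 in the GNF-2 population, so the GNF-2 population lay between vehicle and the other populations. MYC and KLF2 were the exceptions in this list, KLF2 at 5.96 in vehicle and 16.6 in the GNF-2 population and between 1.90 and 9.72 in the other 6 libraries.

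MYC, a transcription factor of growth genes, had 127 in vehicle, 192.5 in the imatinib, 269 in the nilotinib and 343 in the GNF-2 population, with 182 to 283 in the clones. Vehicle was the lowest and the GNF-2 population the highest of the 8 libraries. Its partner MAX was near its vehicle level (35.8 and 43.1). Of the antagonists that compete for MAX, MXI1 (109 and 31.8, called) and MXD1 (23.7 and 11.8, a difference of -0.95) were lower. MXD4, another of them, was higher at 5.68 and 9.56 (0.66). The MYC network list was mixed, with 1 of 9 members called higher and 1 lower. By any amount 4 were higher and 5 lower, and the median was -0.12. Ribosome biogenesis genes, which make and process ribosomal RNA, were higher as a list. Of 39 members 10 were called higher and none lower, 38 were higher by any amount, and the median was 0.69. POLR1B, a subunit of RNA polymerase I, had 7.05 and 18.8, RRS1 6.66 and 20.8, NOP16 16.3 and 40.7 and NOLC1 14.8 and 31.2. The list's median FPKM was 16.4 in vehicle, 19.7 in the imatinib, 22.2 in the nilotinib and 30.4 in the GNF-2 population, and 28.6 to 36.8 in the clones.

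Differences were smaller for the translation machinery. All 36 cytosolic ribosomal protein genes were higher in the GNF-2 population in the deposited FPKM, by 0.03 to 0.47 (RPL6, 464 in vehicle and 643), so the smallest of these differences change sign after rescaling by median ratios. Their median was 0.23, and 0.13 after that rescaling. Among 20 cytosolic tRNA synthetases 19 were higher by any amount and none was called, with a median of 0.41. MARS, which charges methionine tRNA, had 35.4 and 68.1 (0.92), and DARS, the aspartate enzyme, was the one lower member at 151 and 109 (-0.47). One-carbon and nucleotide synthesis genes had a median of 0.40, with 20 of 24 higher by any amount and none called; CTPS, the CTP synthase, had 8.41 and 16.8 and CAD, the first enzyme of pyrimidine synthesis, 10.5 and 18.9. Mitochondrial ribosomal proteins (28 members, median 0.17), oxidative phosphorylation (33 members, median 0.06, and -0.03 after rescaling by median ratios) and the TCA cycle (18 members, median 0.13) had no called member.

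ATF4 and amino acid response genes held some of the largest positive values. Of 27 members 9 were called higher and 1 lower, with a median of 0.76. ATF4 itself, the transcription factor of this response, had 444 in vehicle and 473 in the GNF-2 population (0.09). CHAC1, which degrades glutathione, had 5.93 in vehicle, 7.91 in the imatinib, 36.0 in the nilotinib and 33.1 in the GNF-2 population, and 8.08 (Clone 2) to 54.0 (Clone 4) in the clones. SLC7A11, the cystine importer, had 2.37 and 12.1, SESN2 3.75 and 13.8 and the serine synthesis gene PSAT1 87.3 and 189. VLDLR was the one member called lower, at 33.3 and 15.6. These counts cover this list only. PPP1R15A (333 and 68.2) and DDIT4 (304 and 121), placed in the immediate early and the hypoxia list, were called lower. In the imatinib population SLC7A11 had 2.23, SESN2 2.38 and PSAT1 63.0, each below vehicle. The list's median FPKM was 33.3 in vehicle, 20.1 in the imatinib, 36.1 in the nilotinib and 62.4 in the GNF-2 population.

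The promoters of 2 called members are shown because they hold the composite element TGATGNAA that C/EBP and ATF factors bind. Both are the 250 bases before the annotated start in the RefSeq promoter table (GRCh38.p14), 5′ to 3′ on the strand of the gene, with the element on either strand in capitals. CHAC1 lies at chr15:40953221-40953470 (plus strand), with the element starting 209 bases before the start, and CEBPG, a C/EBP family gene at 17.8 in vehicle and 39.1 in the GNF-2 population, at chr19:33373863-33374112 (plus strand), with the element 42 bases before the start.
CHAC1: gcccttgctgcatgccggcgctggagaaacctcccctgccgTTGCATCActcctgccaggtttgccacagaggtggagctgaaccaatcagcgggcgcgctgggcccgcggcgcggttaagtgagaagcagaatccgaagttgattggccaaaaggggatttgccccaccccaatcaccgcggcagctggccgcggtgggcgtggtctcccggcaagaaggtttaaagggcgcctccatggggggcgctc
CEBPG: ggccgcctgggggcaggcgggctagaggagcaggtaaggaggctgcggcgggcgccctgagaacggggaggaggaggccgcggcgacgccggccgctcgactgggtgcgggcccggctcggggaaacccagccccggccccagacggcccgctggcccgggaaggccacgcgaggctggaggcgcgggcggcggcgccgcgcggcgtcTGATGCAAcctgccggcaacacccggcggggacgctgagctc
Promoter windows of 300 bases (250 before and 50 after the start) were present for 7783 genes of the comparison, some with several windows. The element was in 3.62% of the 35116 windows of the whole table, 1.87% of the windows of genes in the comparison, 1.88% of those of genes called higher and 7 of 38 windows (18.4%) of the ATF4 list. A match is a description of the letters in the window and not a binding site.

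Neighbouring amino acid and stress lists were mixed. Endoplasmic reticulum chaperone and unfolded protein response genes had a median of 0.28. Of 23 members 2 were called higher and none lower, beside 3.83% and 3.32% of all genes. HERPUD1, which acts in degradation of misfolded proteins, had 19.3 and 57.2, and SDF2L1 12.6 and 30.1. XBP1, a transcription factor of that response, had 194 and 369 (0.92). Polyamine and arginine genes had 4 members called higher and 2 lower of 16, with a median of 0.08 that was -0.01 after rescaling by median ratios. ODC1, the first enzyme of polyamine synthesis and a known MYC target, had 48.3 and 105, SMOX, which oxidises spermine, 30.9 and 11.2, and ARG1, which cleaves arginine, 7.67 and 0.0868. ASS1, the arginine synthesis enzyme, had 94 in vehicle, 111 in the imatinib, 183 in the nilotinib and 209 in the GNF-2 population, and 132 to 626 in the clones. Vehicle had the lowest ASS1 level of all libraries. Its promoter is shown for the E-box CACGTG, a palindrome that MYC and MAX can bind and that contains ACGTG; it lies at chr9:130444711-130444960 (GRCh38.p14, plus strand) with the E-box, in capitals, 71 bases before the start.
ASS1: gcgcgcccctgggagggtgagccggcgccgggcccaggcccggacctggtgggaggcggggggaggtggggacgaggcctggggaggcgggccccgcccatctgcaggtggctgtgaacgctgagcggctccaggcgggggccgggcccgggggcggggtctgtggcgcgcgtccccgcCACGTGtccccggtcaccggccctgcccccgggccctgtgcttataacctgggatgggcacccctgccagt
The E-box was in 7.26% of all windows, 9.99% of those of genes in the comparison, 14.5% of those of genes called higher, 9.62% of those of genes called lower and 14 of 43 windows (32.6%) of the ribosome biogenesis list. MAT2A, which makes the methyl donor S-adenosylmethionine, was among the most abundant genes called higher, at 49.3 in vehicle, 48.9 in the imatinib, 90.0 in the nilotinib and 168 in the GNF-2 population and 98.3 to 123 in the clones.

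Glycolysis and hypoxia genes were lower throughout. All 40 members were lower in the GNF-2 population, 18 of them called and none higher, with a median of -0.91. ADM, a vasodilator peptide gene on chromosome 11 (10326641 to 10328923, GRCh37), had the largest difference of any protein-coding gene above 0 in both libraries, at 108 in vehicle, 34.5 in the imatinib, 6.21 in the nilotinib and 2.23 in the GNF-2 population (-5.08). Clone 2 (23.9) and Clone 3 (31.8) were higher than the GNF-2 population, and Clone 1 (2.13) and Clone 4 (3.10) near it. HK2, the hexokinase that starts glycolysis, had 282 in vehicle, 293 in the imatinib, 179 in the nilotinib and 83.5 in the GNF-2 population, the lowest of the populations. ENO2 had 498 and 149, KDM3A, a histone demethylase induced in hypoxia, 72.7 and 22.8, and EGLN1, a prolyl hydroxylase that marks HIF alpha for degradation, 89.6 and 24.2. SLC2A3, a glucose transporter with a near copy in SLC2A14, had 373 and 97.2. The abundant enzymes of lower glycolysis differed less: LDHA had 1719 and 962 (-0.84), PGK1 -0.09 and GAPDH 9445 and 8662 (-0.12). HIF1A itself had 45.8 and 33.9 (-0.42).

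Promoters of 2 called members are shown for ACGTG, the core that HIF binds. They are the 250 bases before the start (GRCh38.p14, RefSeq), with each ACGTG on either strand in capitals and overlapping matches joined. BHLHE40, a transcriptional repressor at 187 in vehicle and 31.0 in the GNF-2 population, lies at chr3:4979187-4979436 (plus strand), and ANKRD37, at 61.6 and 9.78, at chr4:185396591-185396840 (plus strand).
BHLHE40: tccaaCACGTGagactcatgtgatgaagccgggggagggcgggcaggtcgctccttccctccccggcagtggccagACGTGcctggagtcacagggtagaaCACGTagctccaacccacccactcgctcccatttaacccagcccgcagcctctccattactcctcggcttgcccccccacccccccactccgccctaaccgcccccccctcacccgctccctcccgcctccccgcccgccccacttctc
ANKRD37: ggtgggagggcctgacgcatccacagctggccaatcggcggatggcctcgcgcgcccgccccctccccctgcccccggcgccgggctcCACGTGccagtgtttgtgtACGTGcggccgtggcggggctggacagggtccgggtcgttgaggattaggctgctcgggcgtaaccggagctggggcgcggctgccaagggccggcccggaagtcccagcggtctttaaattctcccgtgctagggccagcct
ACGTG was in 31 of 63 windows (49.2%) of the list and in 13 of 21 windows (61.9%) of its called members. Over all 35116 windows the share was 21.4%, over genes of the comparison 26.6%, over genes called higher 28.2% and over genes called lower 27.7%.

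Glycogen genes had called members on the lower side only. Of 20 members 4 were called lower and none higher, beside 3.32% and 3.83% of all genes, while 11 were higher by some amount. The median of 0.04 became -0.05 after rescaling by median ratios and -0.14 after quantile normalization. The called genes were the targeting subunits of protein phosphatase 1, PPP1R3C (16.4 and 1.22) and PPP1R3B (39.0 and 16.4), the glycogen-binding protein STBD1 (53.6 and 10.1) and UGP2, which makes UDP-glucose (98.4 and 38.3). The synthase GYS1 had 132 and 113 and the liver-type phosphorylase PYGL 322 and 204, neither called. Lipid lists had called genes on the higher side only. HMGCS1, an early enzyme of cholesterol synthesis, had 35.8 in vehicle and 86.6 in the GNF-2 population and 30.6 to 53.7 in the other 6 libraries, and LSS 26.4 and 55.6, among 23 members with a median of 0.01 (-0.09 after rescaling by median ratios). FASN, the fatty acid synthase, had 31.6 and 66.6, and the carnitine transferases of fatty acid oxidation were higher as well, CPT1A at 11.1 and 23.3 and CPT2 at 4.36 and 9.998. The fatty acid list had 3 of 17 members called higher, none lower, and a median of 0.19. The cholesterol list had 2 of 23 called higher and none lower. Over all genes 3.83% were called higher and 3.32% lower.

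**Figure D3:**
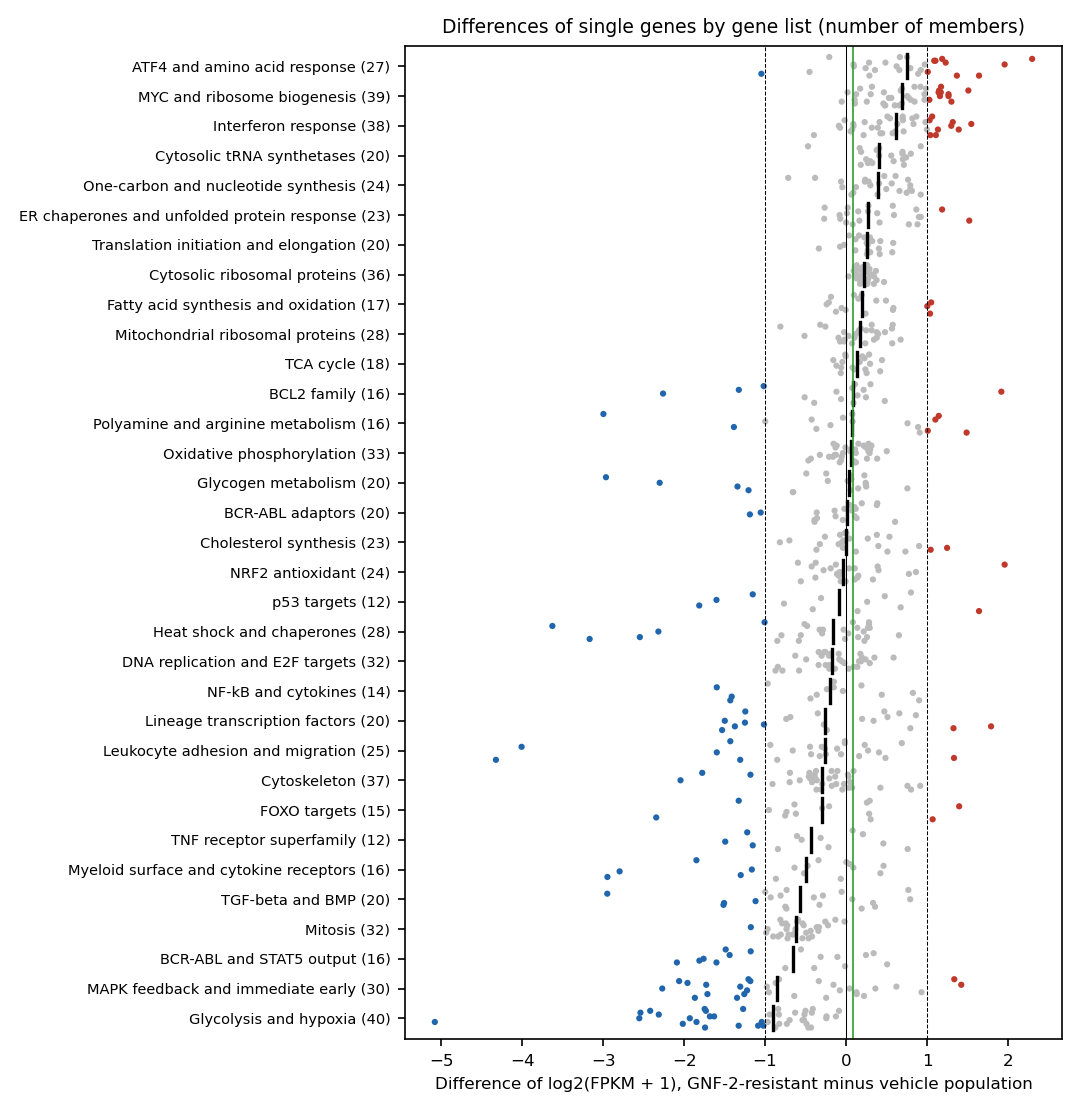
Each point is a gene of the named list placed at its difference of log2(FPKM + 1), GNF-2-resistant minus vehicle population, with red points called higher, blue points called lower and the number of members in brackets; lists shown have at least 3 called or at least 18 members. Black bars are list medians, from 0.76 for ATF4 and amino acid response to -0.91 for glycolysis and hypoxia, the green line is the median of all genes (0.09) and dashed lines mark 2-fold.

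Heat shock and chaperone genes had called members on the lower side only. Of 28 entries 5 were called lower, beside 3.32% of all genes, and none higher, with a median of -0.16. HSPA1A and HSPA1B entries make up 3 of the 5. HSPA1B, the inducible HSP70 gene on chromosome 6, has 2 entries in the table. The entry at 31795511 to 31798031 (GRCh37) had 221 in vehicle, 85.5 in the imatinib, 78.2 in the nilotinib and 17.0 in the GNF-2 population. The entry at 31783319 to 31785717, which lies within the HSPA1A gene, had 149 and 15.7, and HSPA1A itself 19.2 and 3.04. These near-identical copies share reads, so how the fragments divide between them is uncertain. DNAJB1, the HSP40 partner of HSP70 (chromosome 19, 14625581 to 14640049), had 197.5 in vehicle, 103 in the imatinib, 95.9 in the nilotinib and 33.0 in the GNF-2 population, with 55.5 to 103.5 in the clones. The GNF-2 population had the lowest DNAJB1 level of the 8 libraries. DNAJB2, another HSP40 gene, was just past the threshold at 32.5 and 15.7 (-1.01). Other chaperones were not called, among them HSPA8 at 294 and 239 (-0.29), HSP90AB1 at 599 and 612 (0.03) and the mitochondrial HSPD1 at 245 and 296 (0.27). The transcription factor HSF1 had 78.1 and 76.5 (-0.03). The heat shock element, searched as 3 GAA units in alternating orientation on either strand, was in 8 of 39 windows of the list (20.5%) and in 0.49% of all windows, but in none of the 6 windows of its called members.

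Interferon response genes were higher. Of 38 members 9 were called higher and none lower, 34 were higher by any amount, and the median was 0.62. OAS2, a sensor of double-stranded RNA, had 24.9 in vehicle, 46.9 in the imatinib, 26.8 in the nilotinib and 74.6 in the GNF-2 population, and 4.72 (Clone 1) to 170.5 (Clone 4) in the clones. The GNF-2 population was the highest of the populations for OAS2 but lay within the range of the clones. ISG15, a ubiquitin-like modifier, had 87.0 and 189, PARP9 11 and 28.5 and DDX58, the RNA sensor RIG-I, 5.34 and 12.3. IRF1, a transcription factor of this response, was lower at 15.7 and 11.7 (-0.40) and IRF9 25.1 and 23.5. MHC class I and peptide loading genes did not share these values, with no call among 14 members and a median of -0.05; HLA-B had 362.5 and 224 (-0.69) and its transactivator NLRC5 8.41 and 16.9 (0.92).

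Promoters of 2 called members are shown for the core of the interferon-stimulated response element, 2 GAAA units with 2 bases of any kind between them. They are the 250 bases before the start (GRCh38.p14, RefSeq), read 5′ to 3′ on the strand of the gene, with each match in capitals. IFI44L (7.35 and 20.9) lies at chr1:78620198-78620447 (plus strand) with matches 164 and 73 bases before the start, and IFI6, a mitochondrial protein that limits apoptosis (149 and 373), at chr1:27672193-27672442 (minus strand) with matches 156, 115 and 93 bases before it.
IFI44L: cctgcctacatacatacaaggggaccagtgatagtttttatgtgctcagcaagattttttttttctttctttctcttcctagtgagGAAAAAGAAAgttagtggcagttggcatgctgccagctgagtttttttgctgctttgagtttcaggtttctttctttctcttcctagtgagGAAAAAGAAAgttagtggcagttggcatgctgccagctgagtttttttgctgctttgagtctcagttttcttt
IFI6: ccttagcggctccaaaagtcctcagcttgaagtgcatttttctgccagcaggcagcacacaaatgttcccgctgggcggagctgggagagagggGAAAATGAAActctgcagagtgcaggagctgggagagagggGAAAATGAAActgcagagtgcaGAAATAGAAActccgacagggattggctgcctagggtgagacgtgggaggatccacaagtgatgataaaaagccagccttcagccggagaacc
The element was in 21 of 35 windows of the list, in 4 of 9 windows of its called members and in 3.57% of all windows. Among genes called higher it was in 3.22% of windows and among genes called lower in 1.92%.

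Mitosis genes were lower, mostly by less than 2-fold. All 32 members were lower in the GNF-2 population, 1 of them called, with a median of -0.61. CDK1, the kinase that drives entry into mitosis, had 139.5 in vehicle, 91.8 in the imatinib, 72.5 in the nilotinib and 61.2 in the GNF-2 population, and 27.1 to 54.5 in the clones. AURKA had 51.1 and 30.1, PLK1 87.8 and 60.8 and CCNB1 69.8 and 54.9, and CENPE was nearest to its vehicle level at 15.4 and 15.2. DNA replication and E2F genes had a median of -0.17 with no call among 32 members, TK1 at 90.7 and 49.2 being the lowest of them (-0.87). The list's median FPKM for mitosis was 52.8 in vehicle and 33.1 in the GNF-2 population, against 17.5 to 26.8 in the clones. Among cell cycle inhibitors CDKN2A had 3.23 and 16.5 (2.05) and CDKN1A, the p21 gene, 55.6 and 17.7 (a difference past the threshold), while CDKN1B, the p27 gene, had 74.4 and 44.3 (-0.74). Median transcript GC content was lower in the mitosis list, at 42.8%, than in any other list with members. With the GC trend removed the list's median was again -0.61.

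Survival and death genes had calls on both sides. Of 16 BCL2 family members 3 were called lower and 1 higher, beside 3.32% and 3.83% of all genes. Their median was 0.08, and -0.01 after rescaling by median ratios. BCL2A1, an inhibitor of apoptosis, had 22.6 in vehicle, 6.74 in the imatinib, 7.18 in the nilotinib and 3.93 in the GNF-2 population. The BH3-only death genes BCL2L11 (BIM) and BMF were lower at 11 and 3.80 and at 7.55 and 3.23, and the BH3-only gene BIK higher at 2.46 and 12.1. BCL2 (25 and 26.4), BAX (31.7 and 33.9) and MCL1 (132 and 99.96) were not called. Of 12 TNF receptor genes 3 were called lower, the death receptor TNFRSF10B among them at 7.84 and 2.98. TXNIP, which binds thioredoxin and limits glucose uptake, had 135.5 in vehicle, 164 in the imatinib, 207 in the nilotinib and 359 in the GNF-2 population, and 27.1 to 52.8 in the clones. The GNF-2 population was thus highest and all 4 clones were below vehicle for TXNIP. Of 15 FOXO target genes 2 were called higher and 2 lower, with CCNG2 at 24.8 and 9.31 and PINK1 at 4.71 and 11.

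Lineage transcription factors were called in both directions, 2 higher and 6 lower of 20, beside 3.83% and 3.32% of all genes. Their median was -0.25. CEBPA, a regulator of granulocyte commitment, had 4.93 in vehicle, 11.3 in the imatinib, 19.5 in the nilotinib and 19.5 in the GNF-2 population and 9.42 to 24.9 in the clones. GFI1B, a transcriptional repressor active in erythroid and megakaryocyte cells, had 69.6 in vehicle and 176 in the GNF-2 population, against 26.3 to 140.4 in the other 6 libraries. The granulocyte and macrophage factors SPI1 (29.9 and 12), CEBPE (91.5 and 38.1), CEBPD (61.8 and 21.3) and GFI1 (14.6 and 6.74) were lower, as was RUNX3 (35.0 and 11.5). GATA2 (219 and 172) and RUNX1 (88.3 and 112) were not called. Differentiation genes were few in the comparison: 4 of 15 megakaryocyte genes entered, with GP6, the collagen receptor, called higher at 3.84 and 12.8, and 5 of 23 erythroid genes, with CA2 called lower at 378 and 155.

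Surface receptors and adhesion genes held several of the largest negative values. Of 16 myeloid surface and cytokine receptors 5 were called lower and none higher, with a median of -0.50. SIGLEC6, a sialic acid binding lectin, had 118 in vehicle, 12.3 in the imatinib, 44.9 in the nilotinib and 32.1 in the GNF-2 population. TREM1, an amplifier of myeloid activation, had 15 and 5.49, GPR183 22.6 and 2.40 and CD4 24.3 and 2.27. CD4 was lowest in the GNF-2 population of all 8 libraries, the next being the nilotinib population at 5.44. Of 25 adhesion and migration genes 5 were called lower and 1 higher, with a median of -0.26. CXCR4, the receptor for the marrow chemokine CXCL12 (chromosome 2, 136871918 to 136875725, GRCh37), had 53.4 in vehicle, 15.6 in the imatinib, 1.94 in the nilotinib and 1.72 in the GNF-2 population. CYTIP had 23.6 and 0.532, and the selectin ligand SELPLG 33.8 and 11.9. CD44, the hyaluronan receptor, was the gene called higher, at 132 in vehicle, 194 in the imatinib, 158 in the nilotinib and 334 in the GNF-2 population and 109.8 to 135 in the clones. The integrin subunits ITGB1 (135 and 133) and ITGA4 (23.7 and 19.8) were not called. ALOX5AP, which presents arachidonate for leukotriene synthesis, had 107 and 35.9.

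**Figure D4:**
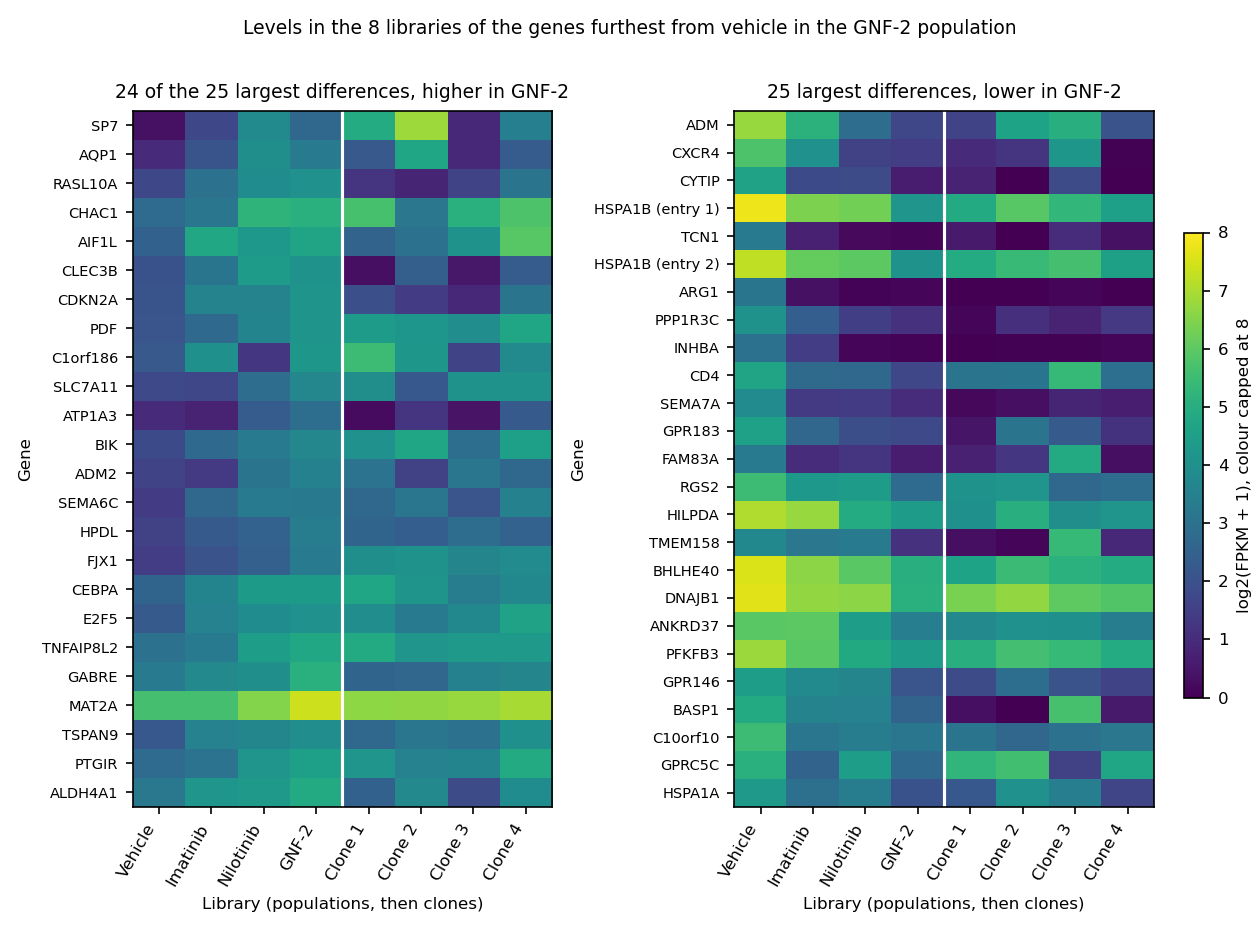
Colour gives log2(FPKM + 1), capped at 8, of 24 of the 25 protein-coding genes with the largest positive difference (left) and the 25 with the largest negative difference (right) between the GNF-2-resistant and vehicle populations, among those above 0 in both, in the 8 libraries. Of the leading genes ADM had 108 in vehicle and 2.23 in the GNF-2 population, and CHAC1 had 5.93 in vehicle and 33.1 in the GNF-2 population.

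Cytoskeleton, S100 and TGF-beta genes had calls on the lower side only. Of 37 cytoskeleton genes 3 were called lower, beside 3.32% of all genes called lower, with a median of -0.29. VIM, the intermediate filament of mesenchymal and blood cells, had 966 in vehicle, 481 in the imatinib, 381 in the nilotinib and 233 in the GNF-2 population. Among the clones VIM ranged from 49.5 (Clone 4) to 845 (Clone 3), so the clones reached from below the GNF-2 population to near vehicle. NET1, an exchange factor for RHOA, had 160.2 and 46.1. S100A11 had 292.5 and 63.6 and S100A6 144 and 46.5. In the list of calcium-binding S100 and annexin proteins 2 of 9 genes were called lower, with a median of -0.26. Of 20 TGF-beta and BMP genes 4 were called lower, with a median of -0.57. INHBA, a subunit of activin, had 7.17 and 0.0583, the receptor TGFBR1 59.6 and 26.9, and the feedback gene SMAD7 28 and 9.17. ID2, a target gene of BMP signals, had 18 and 5.68, while the signal transducers SMAD2 (39.4 and 29.6) and SMAD4 (14.2 and 13.6) were not called and SMAD3 was higher at 31.5 and 54.4 (0.77).

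Transport and detoxification lists are small, and their counts stand beside 7.15% of all genes called either way. ABCC5 was the one drug transporter called of 7 in the comparison, at 2.30 in vehicle and 6.37 in the GNF-2 population. The zinc importer SLC39A14 had 25.1 and 75.02 and the zinc exporter SLC30A1 49.996 and 17.0, the 2 called genes of 9 in the zinc and metallothionein list. STEAP3, a ferrireductase of iron uptake, had 2.86 and 8.09 and was the only call of 12 iron genes, with TFRC at 34.3 and 40.7. Apart from SLC7A11, none of 24 NRF2 antioxidant genes was called, GCLC being next at 5.94 and 11.6 (0.86). AHR genes had a median of -0.91 over 5 members, with CYP1B1, a target of the receptor, at 45.3 and 21.9 and AHR at 22.3 and 11.2. SP7, an osteoblast transcription factor, had 0.283 in vehicle and 5.43 in the GNF-2 population, and 114 in Clone 2. In the Wnt and osteogenic list, which holds SP7, 1 of 14 members was called higher and 1 lower, the latter being RSPO2, a secreted enhancer of Wnt signals, at 6.93 and 2.16 (-1.33). Housekeeping genes had no call among 12, with a median of -0.11, TBP at 19.9 and 20.6 and HPRT1 at 71.8 and 68.8.

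Each library was also compared with the range of all others. Against the range of the other 7 libraries, 18 genes were at least 2-fold above the highest and 1 was at least 2-fold below the lowest, and 3 of the 18 were above 0 in all 8 libraries. GABRE, a GABA receptor subunit, was the one named gene among those 3, at 33.0 in the GNF-2 population against 5.03 to 14.96 elsewhere, and the other 2 are known only by transcript identifiers. C19orf47 was the gene below, a name added after its values were seen, and it was listed at 0 in the GNF-2 population. With each other library in that place, the counts above and below were 44 and 3 for vehicle, 4 and 4 for imatinib, 14 and 1 for nilotinib, and 20 to 146 and 28 to 62 over the clones. RHOB (6.62, next highest 3.04), ALDH1L2 (26.3, next 13.6), CD226 (15.95, next 8.47) and LTB4R (13.5, next 7.83) came next on the higher side without reaching 2-fold on this scale. Among the 4 populations alone, the GNF-2 population had 34 genes at least 2-fold above the other 3 (10 of them above 0 in all 4) and 35 below (20 above 0). EPAS1, the HIF-2 alpha gene, was one of those above at 10.03 against 3.23 to 4.38, but Clone 2 had 12.5. ATF5 (59.1 against 11.6 to 24.5) and OSCAR (35.6 against 7.58 to 16.2) were others, and HK2, ENO2, RGS2 (5.99 against 18.3 to 43.7) and TRIM16 (24.2 against 50.8 to 120.4) were among those below.

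Genes listed at 0 in one library are set apart because the sources used here do not say how such values arose. ROMO1, a mitochondrial protein, had 176 in vehicle and was listed at 0 in the GNF-2 population and in 3 of the 4 clones, and ANAPC10, a subunit of the anaphase-promoting complex, had 20.7 and was listed at 0. PRG2, an eosinophil granule protein, had 59.3 in vehicle and 34.5 in the imatinib population and was listed at 0 in the other 6 libraries. DDT, on the higher side, was listed at 0 in vehicle and had 108 in the GNF-2 population, and QTRT1 was listed at 0 in vehicle and had 14.8 to 22.2 in all 7 others. Of the 88 such calls 41 were protein coding. Small nucleolar RNA genes made up 22 members, of which 6 were called higher and 11 lower, and 5 of the 6 and 10 of the 11 were listed at 0 in one library.

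GC content and length, which the selection did not use, varied with the calls. With the genes in 5 groups of equal size by GC content of the transcript, the share called higher went from 1.22% (29.6% to 40.6% GC) through 1.597%, 3.67% and 5.22% to 6.81% (58.2% to 83.9% GC), while the share called lower stayed between 2.82% and 3.62%. The median difference went from -0.02 to 0.20 over the same groups. With this GC trend removed 332 genes were called higher and 320 lower, an alternative chosen after seeing the data. In 5 groups by transcript length the share called lower was 4.84% in the shortest and 2.45% in the longest. GC content was known for 9398 genes (97.3%).

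**Figure D5:**
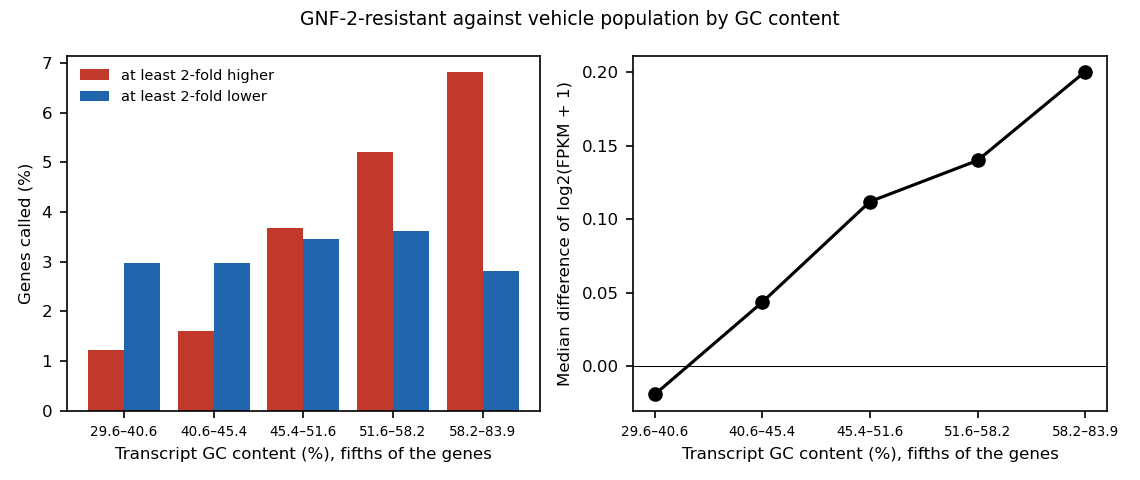
Left, the percentage of genes called higher (red) and lower (blue) in the GNF-2-resistant population in 5 groups of equal size by transcript GC content; right, the median difference of log2(FPKM + 1) in the same groups. The share called higher goes from 1.22% to 6.81% with GC content and the median from -0.02 to 0.20.

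By chromosome, medians lay between -0.03 (X, 303 genes) and 0.23 (chromosome 22, 246 genes). Chromosome 22, which carries BCR, had 14 genes called higher (5.69%) and 7 lower (2.85%), beside 3.83% and 3.32% of all genes. Its median GC content was 56.4%. Chromosome 21 (median 0.19) had 9 of 100 genes called higher and 2 lower. Chromosome 16 (median 0.18, GC 55.8%) had 25 of 479 genes called higher (5.22%) and 7 lower (1.46%). Chromosome 9, which carries ABL1, had a median of 0.09 over 371 genes. Chromosome 19, with the highest GC content (59.3%), had a median of 0.14. With the GC trend removed the medians were 0.17 for chromosome 22, 0.17 for chromosome 21, 0.12 for chromosome 16 and 0.06 for chromosome 19. Chromosome 5 went from 0.01 to 0.07 under that correction, and X, again the lowest, had -0.004.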

How the data were processed

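Total RNA of 8 KCL-22 libraries was sequenced from libraries made with Illumina protocols, per the labels; 2 libraries are compared here. The authors deposited 1 FPKM value per entry and library. TopHat 1.3, Cufflinks 1.3 and GRCh37 are named in the submitters' processing notes, and the sources used here do not say whether counting used strand. No unit stands in the header; FPKM was inferred from the tools and the values. Because FPKM is relative within a library, a few abundant genes can shift all others, and overlapping or near-identical genes may share fragments.

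The 70 entries without a value in at least 1 library were left out, which left 31332, of which 9661 passed the threshold (9216 protein coding). The difference is log2(FPKM + 1), GNF-2 population minus vehicle, with a pseudocount of 1, computed with Python 3.11.15, numpy 2.4.6, pandas 2.3.3 and scipy 1.17.1 and drawn with matplotlib 3.10.9. With 1 library a side no test was run. The difference on the log2 scale, taken from the deposited values, understates low genes. The code was tested on simulated data. Members and the 56 gene lists were chosen with earlier results of these data known, and no count or median is read as independent support. Some genes, such as MYC, MXI1 and CDKN1A, stand in several lists and are counted in each. Depth was estimated from 612 intronless genes of 1000 to 8000 bases, from the value that a single fragment gives, and is rough; intervals cover counting error only. Length, GC content and intronless genes came from GENCODE release 29 and biotypes from RefSeq, both on GRCh38, matched by symbol or gene identifier. Promoters came from the RefSeq table (GRCh38.p14); 6 motifs were searched on both strands, TGACGTCA (1.85% of all windows) being the one not shown. Positions of genes are those of the deposited table.

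Genes were named by rule. It covers the top 25 differences in each direction among protein-coding genes above 0 in both libraries, the 10 largest each way at an FPKM of at least 100, and of each list the called members or the 4 largest. It also took up to 5 genes each way listed at 0 in one library, the 8 furthest outside the other 7 libraries each way, genes next to the thresholds, and ABL1, BCR, MYC and housekeeping genes. Further list members that were not called, genes outside the other 3 populations, and C19orf47 were named after their values were seen. Alternatives were pseudocounts of 0.1 and 5, an FPKM of at least 1 or 20, 1.5-fold and 4-fold, rescaling by median ratios, quantile normalization, only genes above 0 in both or all 8 libraries, and only protein-coding genes. Removing the GC trend and keeping entries with a value in the 2 libraries were added after seeing the data. Some genes are not reported here.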

Additional observations from a re-analysis of the deposited data

How the results depend on the processing

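Each condition is 1 library, so no library could be left out and no spread between replicates is known. No paired analysis was possible because each group has 1 library and the groups share fewer than 2 replicate numbers. Against 370 genes higher and 321 lower, a pseudocount of 5 gave 140 and 212, an FPKM of at least 20 gave 112 and 183, 1.5-fold gave 1392 and 804 and 4-fold gave 55 and 92. These 4 settings make the call stricter or looser by construction. The share of calls on the higher side also moved, from 53.5% to 39.8%, 38.0%, 63.4% and 37.4% in that order. The other alternatives, the 2 rescalings and the removal of the GC trend included, stayed within 1.5 times of both counts, with 505 and 364 with a pseudocount of 0.1, 551 and 410 with an FPKM of at least 1, 320 and 279 with protein-coding genes only and 372 and 322 with all entries that have a value in the 2 libraries. Against the other 7 libraries, the 18 genes above became 3 and the 1 gene below became 0 with only genes above 0 in all 8 libraries, and the 1 became 2 with a pseudocount of 0.1. Medians of the 51 lists with at least 5 members moved by less than 1.5-fold under 7 alternatives. That margin is wider than most of the medians themselves, so it shows little about their stability. With an FPKM of at least 20, receptor tyrosine kinases went from 0.51 to 0.09 and FOXO targets from -0.29 to -0.74. Medians near 0 changed sign in some alternatives: heat shock was 0.01 and glycogen -0.49 with an FPKM of at least 20. Depth limits small differences of low genes.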
